A study of Caenorhabditis elegans with 4 samples.

Results

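The data are the 311 sites bound by RNA polymerase II (Pol II) on chromosome IV in whole fed L1 larvae of *Caenorhabditis elegans*. They are all lines of the authors' combined binding site list that name chromosome IV, and make up 15.8% of its 1967 sites. The study compared 2 Pol II ChIP samples with 2 input samples, where ChIP is chromatin pulled down with an antibody and input is the same kind of chromatin without the pull-down. All 4 samples came from hermaphrodites of the wild-type strain N2, grown at 20 °C and fixed with formaldehyde. The 2 samples of each kind are labelled as replicates from separate extractions, and whether they were separate cultures is not stated. The antibody, 8WG16, binds the repeated heptapeptide at the C-terminal end of the largest Pol II subunit. Whole larvae hold many cell types, so a site bound in few cells and a site bound weakly in many cannot be told apart.

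Pol II transcribes all protein-coding genes and many small RNA genes, and it accumulates where transcription starts and along genes that are read often. Worm autosomes have a gene-dense centre with little recombination, flanked by arms that are richer in repeats and recombine more. Many worm genes lie in operons, runs of neighbouring genes read from a shared promoter. Chromosome IV is also known for a pair of broad clusters of piRNA genes, whose small RNAs guard the germ line. Which genes or clusters the sites below cover was not analysed here.

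Each site has a start, an end and a q-value of the authors for ChIP against input. The list gives no value per library, so no value below carries a replicate error and no difference between chromosomes or parts was tested. Sequencing depth is unknown. Coordinates are those of the WS180 build. Sites are ranked over the whole list, with rank 1 for the lowest q-value. Differences between chromosomes are given as descriptions of 1 list.

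The sites of chromosome IV ran from 104771 to 17110741, a span of 17.01 Mb, and covered 531 kb of it. This was 18.3 sites per Mb and 3.12% of the span. Among the other chromosomes compared, III had 15.2 sites per Mb, II 15.2, V 10.5 and X 8.30. Their covered shares were 3.33% on III, 2.58% on II, 2.36% on V and 2.03% on X. By number of sites chromosome IV was therefore the densest of these 5, and by covered share it came after III. Chromosome I, which is not among these 5, was denser, with 57.3 sites per Mb and 5.04% covered. Its sites were also more closely spaced, and 86.2% of them had a neighbour under 10 kb away.

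The layout along chromosome IV was uneven, with most sites in the centre and fewest toward the right end. When the span was cut into 3 equal parts of 5.67 Mb, the middle part (5773428 to 11442084) held 140 sites, or 45.0%. The left part held 103 sites (33.1%) and the right part 68 (21.9%). Below, centre, left arm and right arm refer to these equal parts. They are not domains of gene density or recombination, which were not mapped here. Density was 18.2 sites per Mb in the left part and 24.7 in the middle part. The middle part had 1.36 times the density of the left part and 2.06 times that of the right part.

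**Figure D1:**
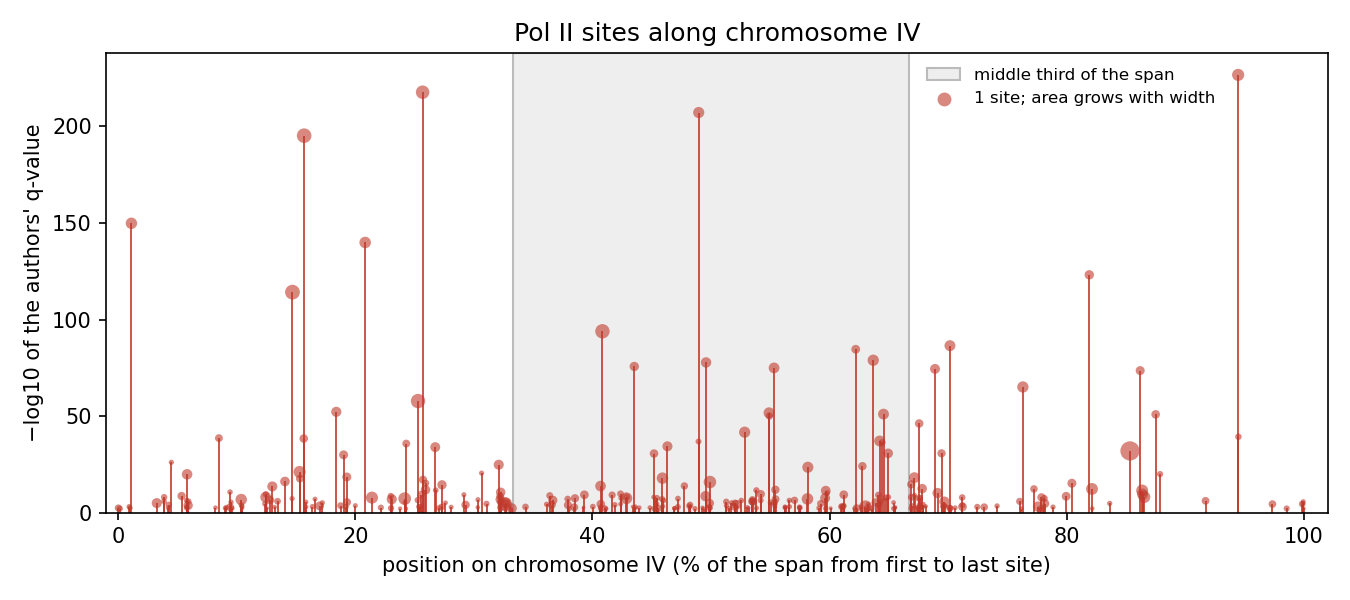
Each line is 1 of the 311 sites on chromosome IV, placed by its midpoint as a percentage of the span (x axis), with the height giving −log10 of the authors' q-value (y axis) and the area of the point growing with site width. The middle part is shaded and holds 140 sites. The site with the lowest q-value stands near the right end, where few others lie.

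The left arm of chromosome IV was well filled. On chromosome II the left part had 5.53 sites per Mb, on III 8.79, on V 6.23 and on X 8.12. The ratio of middle to left density was 1.36 on IV, against 4.18 on II, 2.78 on III, 3.14 on V and 1.16 on X. The ratio of left to right site numbers was 1.51 on IV, 0.326 on II, 0.702 on III, 1.08 on V and 1.098 on X. Chromosomes II and III were thus fuller on the right, whereas IV was fuller on the left. By covered bases the same ratio was 1.51 on IV, 0.365 on II, 0.821 on III, 0.937 on V and 0.964 on X.

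In covered bases the centre of chromosome IV stood out less than in site numbers. Sites covered 3.43% of the left part, 3.67% of the middle part and 2.27% of the right part. The middle part held 39.1% of covered bases, against 45.0% of sites. Sites were narrower there, with a median of 945.5 bp, compared with 1090 bp in the left part and 1272 bp in the right part. The interquartile ranges overlapped widely, from 562.5 to 2760 bp on the left, 453 to 2085 bp in the middle and 546 to 2627 bp on the right.

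**Figure D2:**
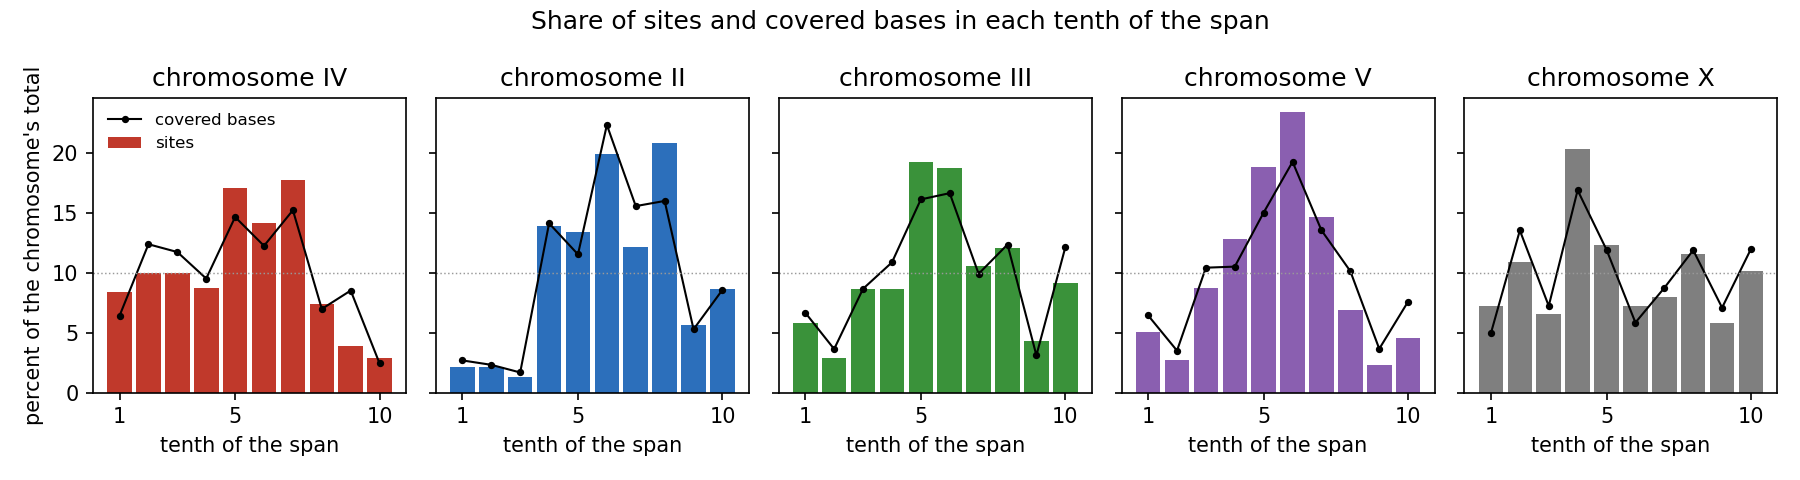
The span of each chromosome is cut into 10 equal parts (x axis), and bars show the percentage of the chromosome's sites in each, with joined black points for the percentage of its covered bases (y axis). The dotted line marks an even 10%. Chromosome IV rises to 17.7% of sites in part 7 and ends at 2.89% in the last, while II has 1.30% in part 3 and 20.8% in part 8.

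A finer view showed a broad dense block and a sparse right end. From the first to the seventh megabase the counts were 11, 19, 20, 11, 25, 18 and 12 sites. The eighth to the twelfth megabase held 32, 27, 31, 24 and 37 sites, together 151 sites or 48.6% of the total. From the thirteenth to the eighteenth they were 11, 13, 10, 2, 4 and 4. The step down came between the twelfth megabase, the fullest of the chromosome, and the thirteenth. The middle part as defined above ends inside this twelfth megabase, and 24 of the 68 sites of the right part lie in it.

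Covered bases followed site numbers in most of these bins but not in all. Megabase 3, with 20 sites, had 46.2 kb covered, and megabase 5, with 25 sites, had 48.4 kb. Megabase 8 had 47.5 kb with its 32 sites. Megabase 15 had 41.5 kb covered by only 10 sites, whose mean width was 4154.5 bp. In megabase 8 the mean width was 1485 bp.

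**Figure D3:**
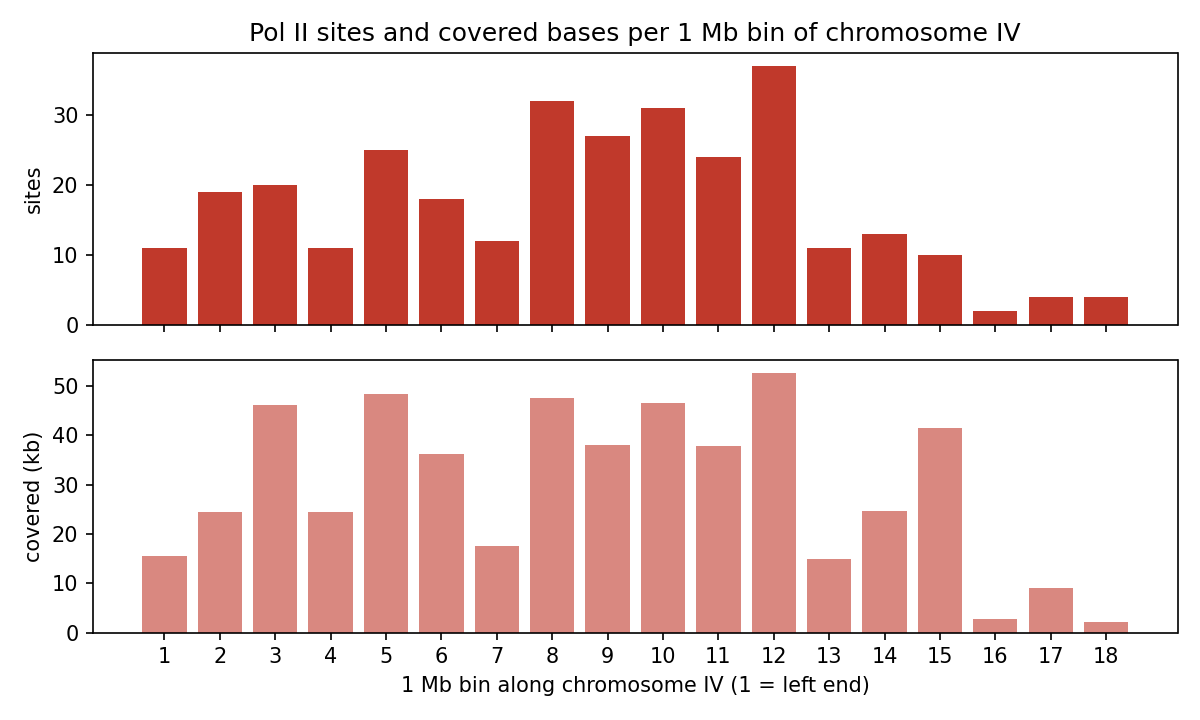
Chromosome IV in bins of 1 Mb from the left end (x axis), with the number of site midpoints in the upper panel and the covered bases in kb in the lower panel (y axes). Bin 15 has 10 sites but 41.5 kb covered, and bin 16 has 2 sites and 2.82 kb.

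Dense windows were also found outside the middle part, several of them close to its edges. Of 172 fixed windows of 100 kb, 114 lay wholly outside the middle part, and 9 of these held at least 5 sites. Among the 58 windows that overlapped the middle part, 7 held that many. Outside their own middle parts, chromosome II had 4 such windows of 101, III 2 of 92, X 2 of 121 and V none, with 0 of 139. The fullest window outside the middle part held 8 sites on IV, 8 on II, 7 on X, 5 on III and 3 on V.

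The densest of these windows on chromosome IV ran from 4400001 to 4500000 in the left part, 1273 kb from the middle part. Its 8 sites covered 20.3% of the window. They included a 6512 bp site of rank 10 (4467987 to 4474498, q = 1.77e-218) and a 7490 bp site of rank 117 (4401931 to 4409420, q = 1.74e-58). The narrowest site of the chromosome, 3 bp wide at 4414016 to 4414018, lay in the same window. Strong, broad sites and faint, narrow ones thus stood within 100 kb of each other.

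A second left-arm window, from 2700001 to 2800000, held 6 sites that covered 17.9% of it. Most of that coverage came from a 7673 bp site of rank 20 (2767958 to 2775630, q = 5.80e-196) and a 5147 bp site of rank 318 (2703904 to 2709050). The window from 5500001 to 5600000 also held 6 sites, covering 14.1%, but its best site ranked 280th (5561250 to 5564640, q = 1.58e-25). It lies 173 kb from the middle part, so it borders the centre rather than the arm's outer end. A neighbouring window from 5600001 to 5700000 had 3 sites that covered 12.4%, the best of which ranked only 967th.

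In the right part the fullest windows were those next to the centre. The window from 11500001 to 11600000 held 7 sites and covered 9.10%, and the next one, to 11700000, held 6 sites and covered 6.13%. Both lie within 158 kb of the middle part. With windows shifted by 50 kb, the window from 11550001 to 11650000 held 10 sites, more than any other outside the middle part. Farther out, the window from 13300001 to 13400000 held 5 sites and covered 8.36%, and its best site ranked 685th.

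On the outer right arm, 2 windows were highly covered by few, wide sites. The window from 14600001 to 14700000 was 13.7% covered by 1 site, the widest of the chromosome. In the next window, to 14800000, 3 sites covered 11.9%. One of them, a 2629 bp site at 14762699 to 14765327, ranked 94th with a q-value of 2.74e-74. The others, of 5033 bp and 4259 bp, lay 0.203 kb apart (14790146 to 14795178 and 14795382 to 14799640).

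Empty stretches were most frequent on the right. Of 310 gaps between neighbouring sites, 17 were at least 200 kb long, and together they took up 5.38 Mb or 31.6% of the span. Of these 17, 10 lay between sites of the right part, 3 between sites of the left part, 3 between sites of the middle part, and 1 across the boundary of middle and right. The share of the span in such gaps was 31.6% on IV, 38.1% on III, 39.5% on II, 49.96% on V and 63.3% on X.

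The 3 longest empty stretches followed one another on the right arm. The longest was 651 kb, from 15050009 to 15700804. After a single 1835 bp site of rank 829 came a stretch of 464 kb, from 15702640 to 16166512. After a pair of sites came one of 487 kb, from 16173393 to 16660184. The next 2 by length lay on the left arm, with 388 kb from 1111389 to 1499808 and 360 kb from 296317 to 655825. The longest gaps of the other chromosomes were 524 kb on III, 656 kb on X, 787 kb on II and 1151 kb on V. Only gaps between sites count here, so stretches before the first or after the last site of a chromosome are left out. On X the first site started at 1010457, so the stretch before it was longer than the longest gap of X.

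The last 2.06 Mb of the span, beyond the longest gap, held 9 sites, or 4.37 per Mb with 0.626% covered. The other 14.9 Mb held 302 sites, or 20.2 per Mb with 3.47% covered. Yet the strongest site of the chromosome stood in this sparse end, from 16166513 to 16171692. It was 5180 bp wide and ranked 8th of the whole list (q = 1.86e-227). A weaker site of 1130 bp and rank 181 followed it after 0.570 kb (16172263 to 16173392, q = 5.14e-40). The remaining 7 sites of this end ranked from 829th to 1848th and were 41 to 1835 bp wide.

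Sites came in small groups with wide spaces between them. The median gap was 21.0 kb and the mean 53.1 kb, with quartiles at 2.25 and 64.1 kb. Gaps under 1 kb made up 17.4% of the gaps on IV (54 of 310), 12.1% on III, 11.5% on V, 9.49% on X and 9.13% on II. Median gaps elsewhere were 23.1 kb on II, 26.5 kb on III, 42.8 kb on V and 55.9 kb on X.

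**Figure D4:**
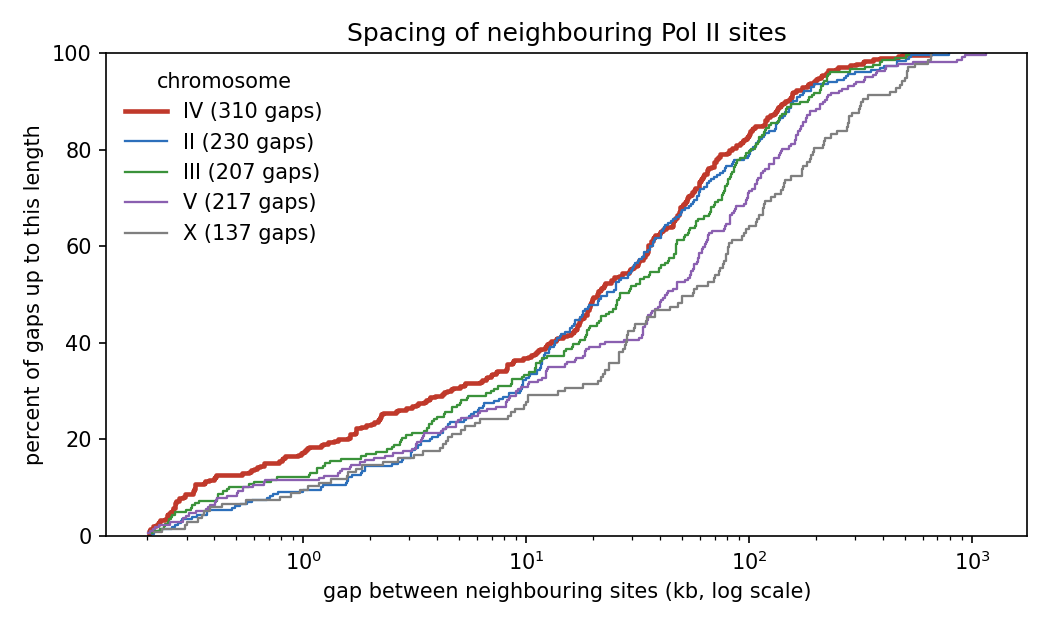
Cumulative distributions of the gaps between neighbouring sites (x axis, kb, log scale) with the percentage of gaps up to each length (y axis), for chromosome IV (thick line, 310 gaps) and for II, III, V and X. At 1 kb the line of IV stands at 17.4% and those of the other 4 between 9.13% and 12.1%.

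With sites under 10 kb apart linked, the 311 sites formed 197 groups, of which 127 were single sites, 43 were pairs and 27 had at least 3 sites. These 27 groups held 98 sites, or 31.5%. The same share was 31.3% on III, 24.7% on II, 23.4% on V and 9.42% on X. No group on IV exceeded 5 sites, whereas the largest group had 8 sites on V, 7 on II, 6 on III and 4 on X. Of all sites on IV, 59.2% had a neighbour under 10 kb away, against 53.4% on III, 52.4% on II, 51.4% on X and 50% on V. With sites under 500 bp apart joined, the value on IV was 48.2%. It was not computed for the other chromosomes, so their order after joining is not known. Without joining, the percentage on IV was 58.3 in the left part, 62.1 in the middle part and 54.4 in the right part.

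The 4 groups of 5 sites all lay between 5580967 and 11603846, in the middle part or close to its edges. In the left part, 5 sites filled 74.97% of the 14.3 kb from 5580967 to 5595278, with a best rank of 541. In the middle part, 5 sites filled 69.6% of the 14.2 kb from 8584986 to 8599140 (best rank 399), and 5 sites filled 39.9% of the 24.6 kb from 9510175 to 9534770 (best rank 92). In the right part, 5 sites filled 55.8% of the 11.1 kb from 11592707 to 11603846, with a best rank of 159. Among the groups of 4 sites, the one with the most covered bases ran from 4400485 to 4415963 in the left part, with a best rank of 117. In all of these 5 groups but the one at 9510175, sites took up most of the group's length.

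In strength the sites of chromosome IV were close to the list as a whole. The 983 sites with the lowest q-values (50% of all sites) included 160 from IV, or 51.4% of its sites. The share was 53.8% on III, 47.6% on II, 59.2% on V and 57.2% on X. On IV, 24 sites (7.72%) had a q-value below 1e-50, against 7.47% of the whole list, and 8 sites (2.57%) had one below 1e-100, against 3.25% of the list. Among the 795 sites of II, III, V and X the percentages were 9.94 and 4.78. The 100 strongest sites (5.08% of the list) included 17 of IV, or 5.47% of its sites. All these shares of IV are near the background of the list and are not read as a difference.

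Within the stronger 50% of the list, chromosome IV had fewer sites in the strongest group than in the next group by rank. When the whole list was cut by rank into 4 equal groups, 20.9% of the sites of IV fell in the strongest group, 30.5% in the second, 25.4% in the third and 23.2% in the weakest. Each group holds 25% of the whole list, so the third and the weakest are near that background. The strongest group held 29.0% of the sites of II, 32.2% of III, 37.2% of V and 32.6% of X. The second held 18.6% of II, 21.6% of III, 22.0% of V and 24.6% of X. Chromosome I, which holds 861 of the 1967 sites, weighs on these ranks. Its own shares by group are not given here, so IV is not shown to be the lowest of all chromosomes. The strongest and second groups together held 51.4% of the sites of IV, near the 50% of the list. The split between them was not tested and is not read as a difference in strength.

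The 17 sites of IV among the 100 strongest numbered 5 in the left part, 7 in the middle part and 5 in the right part. The middle part thus held 41.2% of them, near its 45.0% of all sites on IV. They were 2477 to 7910 bp wide, with a median of 4301 bp. Of the 17, 9 had a neighbour under 10 kb away, and the most isolated had its nearest neighbour 92.6 kb away.

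The 10 strongest sites gave the chromosome its tallest peaks in both arms. After the sites at 16166513 to 16171692 and 4467987 to 4474498, the third was in the centre, 4301 bp wide at 8429534 to 8433834 (rank 16, q = 5.74e-208). The fourth was the 7673 bp site at 2767958 to 2775630 described above. The fifth, 4516 bp wide at 291801 to 296316 (rank 31, q = 1.40e-150), lay near the left end, just before the 360 kb empty stretch. The sixth was 4609 bp wide at 3644704 to 3649312 (rank 36, q = 1.21e-140) and was the isolated site 92.6 kb from its nearest neighbour. The seventh lay on the right arm at 14032225 to 14035115, with a width of 2891 bp and a q-value of 6.78e-124 (rank 42).

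The eighth strongest was also the second widest, 7910 bp at 2600393 to 2608302 (rank 54, q = 6.55e-115). The ninth was 7478 bp wide at 7046710 to 7054187 (rank 68, q = 1.23e-94), and the tenth 4127 bp wide at 12033297 to 12037423 (rank 76, q = 3.42e-87). Of these 10 sites, 5 thus lay in the left part, 2 in the middle part and 3 in the right part. Of all sites on IV, these parts held 33.1%, 45.0% and 21.9%, and 10 sites are too few to compare with that. Weaker sites flanked several of them closely. Gaps under 1 kb separated 6 of the 10 from a neighbour.

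The median site of IV was 1077 bp wide, with quartiles at 527.5 and 2415 bp. Sites were wider on X (median 1660.5 bp), V (1490.5 bp) and III (1258.5 bp), and narrower on II (970 bp). Sites of at least 5 kb numbered 14 on IV, or 4.50%. This is near the 5.54% of the whole list, which includes chromosome I with 1.97%. Such sites made up 5.19% of the sites on II, 10.6% on III, 11.5% on V and 13.8% on X. Among the 795 sites of these chromosomes together the share was 9.81%, and no difference was tested. Of the 14, 8 lay in the left part, 3 in the middle part and 3 in the right part. Of all sites on IV, these parts held 33.1%, 45.0% and 21.9%.

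The widest site, 13734 bp from 14610877 to 14624610 on the right arm, ranked 227th with a q-value of 1.15e-32. It stood alone, with 284 kb to its left neighbour and 138 kb to its right one. The next 4 by width were the sites of 7910, 7673, 7490 and 7478 bp named above, all of rank 117 or better. Width and strength did not always go together. A 6937 bp site at 5650763 to 5657699 ranked 1056th (q = 3.70e-05), and a 5809 bp site at 10820007 to 10825815 ranked 1395th (q = 0.000999), and these were the only sites of at least 5 kb outside the 983 strongest.

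At the other extreme, 8 sites of IV were under 50 bp wide, or 2.57%, against 3.05% of the list. The 5 narrowest were 3, 17, 22, 25 and 36 bp wide. They lay at 4414016 to 4414018, 11917140 to 11917156, 5729526 to 5729547, 6778889 to 6778913 and 9148712 to 9148747. None of the 8 ranked better than 1377th. The 3 highest q-values were 0.00996 for a 279 bp site (7105059 to 7105337), 0.00968 for a 188 bp site (4233918 to 4234105) and 0.00921 for a 377 bp site (13058945 to 13059321). The first of these is the last of the whole list by rank.

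Wider sites tended to have lower q-values, with a Spearman's rho of 0.69 between width and strength over the 311 sites. The values were 0.64 on II, 0.71 on III, 0.60 on V and 0.60 on X. A q-value depends on the reads in a site, which grow with its width, and sites are not replicates, so rho is given as a description with no p. With the sites of IV cut into 4 groups by rank, the median width was 3069 bp in the strongest, 1284.5 bp in the second, 753 bp in the third and 432 bp in the weakest. The strongest group of 77 sites held 48.5% of all bases covered on IV, and the weakest group of 78 held 8.95%.

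**Figure D5:**
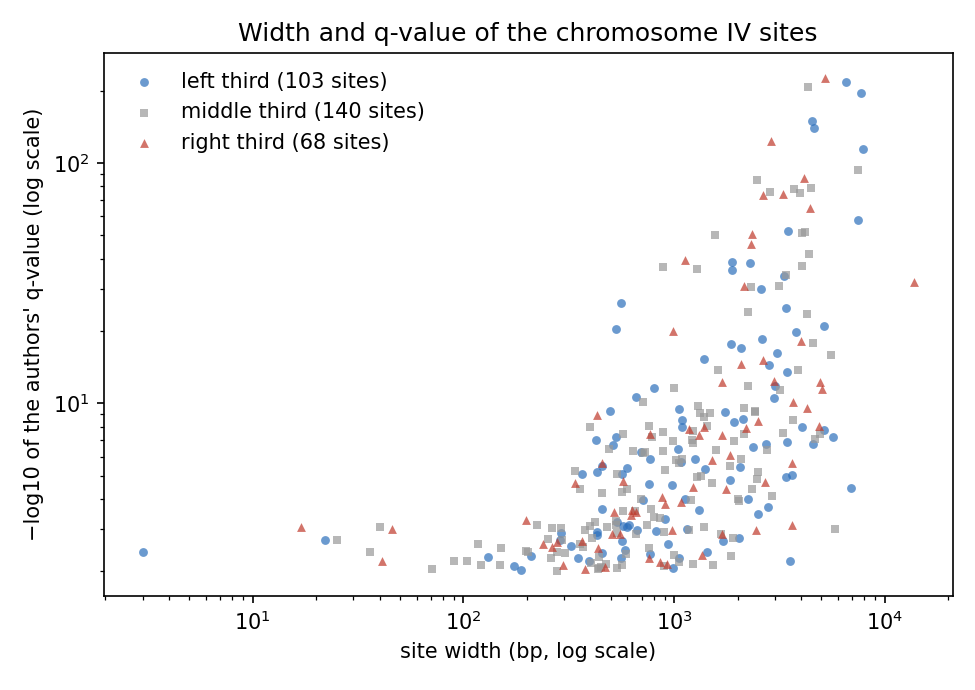
Width (x axis, bp, log scale) and −log10 of the authors' q-value (y axis, log scale) of the 311 sites on chromosome IV, with circles for the left part, squares for the middle part and triangles for the right part. The widest site, of 13734 bp, is the triangle at the far right, below the strongest sites. The 8 sites under 50 bp lie at the lower left.

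The weakest sites stood farther from their neighbours than the others did. The median distance to the nearest site was 2.24 kb in the strongest group, 1.73 kb in the second, 3.32 kb in the third and 11.9 kb in the weakest. In the weakest group 46.2% of sites (36 of 78) had a neighbour under 10 kb away, compared with 61.04% (47 of 77) in the strongest. The middle part held 28 of 77 sites in the strongest group, 38 of 78 in the second, 35 of 78 in the third and 39 of 78 in the weakest. The number was lowest in the strongest group, but it showed no steady trend with rank, and no difference was tested.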

How the data were processed

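Per the file headers, the authors deposited 1 list of binding sites on the WormBase WS180 build, called by PeakSeq, with a start, an end and a q-value for each site. Its name says that it is combined. The aligner, the caller's version and the handling of replicates were not given in the sources used here. A protocol attached to the samples mentions embryos and a GFP serum, unlike the other labels, which are followed here. Depth per sample is unknown, so no interval that needs it is given.

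From the list, widths, gaps (bases between neighbouring sites), ranks by q-value and densities were computed. The span runs from the first start to the last end of a chromosome. Sites were assigned to parts and windows by midpoint, and covered bases by overlap. The named sites are the 10 strongest, 5 widest, 5 narrowest and 3 with the highest q-values, with the 5 longest gaps, the 5 fullest windows outside the middle part by number and by coverage, and the 5 largest groups by number of sites, then by covered bases. Other named sites, and the cuts by megabase, were picked with their values in view. The members and measures were chosen with earlier results of these data known. Counting and spacing steps were tested on simulated data of known layout. Genes were not assigned and no sequence was read, since no genome or annotation of the WS180 build was used here. Python 3.11.15, numpy 2.4.6, scipy 1.17.1 and pandas 2.3.3 were used.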

Additional observations from a re-analysis of the deposited data

How the results depend on the processing

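Of 35 alternative values of 10 results, 24 held and 11 moved. A value held when it stayed within 1.5 times for densities, covered share, window count and longest gap, and within a 95% interval over sites for shares, medians and rho. Such intervals treat neighbouring sites as independent. With the 983 strongest sites of the list alone, which leaves 160 sites on IV, density fell to 9.52 sites per Mb, the median width was 2105.5 bp and the median gap 51.7 kb. The fullest window outside the middle part then held 5 sites, 44.4% of sites had a neighbour under 10 kb away, and rho of width with strength was 0.55. Dropping sites lowers density and lengthens gaps by itself, so such moves were largely set by the cut. Joining sites under 500 bp apart left 272 sites, with a median gap of 31.8 kb and 48.2% with a neighbour under 10 kb away. That percentage was 52.7 at a distance of 5 kb and 74.0 at 20 kb. The middle part held 39.1% by covered bases, against 45.0% of sites, and 43.8 to 45.7% of sites under the other 4 alternatives. Leaving out the 8 sites under 50 bp moved none of the 10 results, and so few sites could hardly have moved them. No replicate could be left out. No paired analysis was possible because no q-value belongs to a single replicate. Since depth is unknown, an empty stretch says only that no site was called there.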

Other observations

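The last 4 sites at the right end of chromosome IV were evenly spaced. They lay at 17088078 to 17089306, 17095943 to 17096281, 17103236 to 17103690 and 17110701 to 17110741, and their midpoints were 7.42, 7.35 and 7.26 kb apart. Their widths were 1229, 339, 455 and 41 bp, and their ranks 1045, 1016, 879 and 1804. Among the 1949 runs of 4 successive sites in the whole list, this was the only one whose 3 distances stayed within 5% of each other. The pattern was noticed in the data and then counted, so the count is no test of how unusual it is. Whether the sequence there is repeated was not tested.

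The shortest gap between neighbouring sites was 203 bp on IV, 211 bp on II, 204 bp on III, 202 bp on V, 215 bp on X and 201 bp on I. No gap of 200 bp or less occurred anywhere in the list, so pieces closer than that do not appear as separate sites.

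The q-values of some weak sites stand in simple whole-number ratios. In 338 places of the list the q-value was lower than that of the line before. In 254 of these, the ratio of the 2 q-values was that of neighbouring whole numbers. The smaller number, computed from the ratio, lay within 0.001 of a whole number. Each time this was the line number of the earlier line plus 12. When each q-value was multiplied by its line number plus 12, 430 of the 1967 lines had a product equal to that of a neighbouring line within 1e-09 of its size, in runs of up to 8 lines. On chromosome IV these were 63 of the 311 sites (20.3%), the strongest of them at rank 957. They were 3 to 2040 bp wide. Ranks within the list differ by at most 11 places between the order of q-values and the order of lines.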
